A study of Mus musculus with 18 samples.

Results

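Krt7, Krt8, Krt18 and Krt19 are the keratins of simple, single-layered epithelia. They were followed here through single-cell RNA libraries of whole mouse embryos at E8.5 (embryonic day 8.5), the onset of organogenesis. The members are the 4 of 31053 mouse genes in the files that carry these symbols. They were taken by symbol, with earlier results of these data known. Each library held the cells of 1 embryo on the 129S4/SvJae background, sequenced with a 10x droplet kit that counts 3′ ends as unique molecular identifiers (UMIs, each standing for 1 captured transcript). There were 7 WT embryos (WT 1 to 7), 3 Dnmt1 KO embryos (1, 2 and 3), 4 Dnmt3a KO embryos (1, 2, 13 and 14) and 4 libraries labelled Dnmt3b KO (1, 2, 11 and 12). The KO embryos were constitutive nulls, lacking the gene in every cell, from matings of heterozygous parents that also gave the matching WT embryos. No other allele or agent was named for any group. Dnmt1 copies DNA methylation at each cell division, whereas Dnmt3a and Dnmt3b place new methylation. The ectoplacental cone, a trophoblast tissue, was taken for genotyping, and how much extra-embryonic (ExE) tissue stayed on each embryo was not recorded in the sources used here.

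Keratins build the intermediate filaments of epithelial cells and assemble only as heteropolymers of a type II with a type I chain. Krt7 and Krt8 are type II chains, and Krt18 and Krt19 are type I chains that can pair with them. Krt8 and Krt18 are the first keratins that the embryo makes, in trophectoderm, and they remain on in trophoblast, yolk sac endoderm, gut and mesothelium. Loss of Krt8, or of Krt18 together with Krt19, makes trophoblast cells fragile in mice.

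The genes lie in both keratin clusters of the mouse genome (GRCm38 annotation). Krt7 covers chr15:101411043-101430313 on the plus strand, with up to 9 exons in a transcript. Krt8 covers chr15:101996698-102004482 on the minus strand, also with up to 9 exons, and Krt18 covers chr15:102028180-102032027 on the plus strand, with up to 7. Krt18 is the only type I keratin gene among these on chromosome 15, and it is transcribed away from Krt8 across a gap of 23697 bases. Krt19 lies apart, at chr11:100140810-100148665 on the minus strand, with up to 6 exons. The annotation also holds a processed pseudogene of Krt8 (Krt8-ps), which was not measured here, so reads that match both are uncertain, and an antisense gene, Gm671, that overlaps the start of Krt7, at the other end from the counted tags. The sequences before the starts of Krt8 and Krt18, which share their chromosome and most of their pattern below, are shown because the deleted enzymes act on CG pairs (RefSeq, GRCm38.p6, 5′ to 3′, CG in capitals). The Krt8 stretch is the 110 bases at chr15:102004483-102004592, minus strand, and the Krt18 stretch is the 214 bases at chr15:102027966-102028179, plus strand.
Krt8: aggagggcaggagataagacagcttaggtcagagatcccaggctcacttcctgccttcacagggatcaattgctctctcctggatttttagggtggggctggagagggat
Krt18: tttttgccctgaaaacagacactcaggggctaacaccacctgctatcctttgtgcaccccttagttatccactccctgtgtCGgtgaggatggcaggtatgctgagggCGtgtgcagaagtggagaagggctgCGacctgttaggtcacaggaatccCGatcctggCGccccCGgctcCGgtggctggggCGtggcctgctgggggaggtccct
The Krt8 stretch held 0 CG pairs and the Krt18 stretch held 8. Over the 250 bases before the RefSeq start, Krt8 had 3 CG pairs, Krt18 had 12 and Krt7 had 16, against a median of 6 over 32851 promoters. Of those promoters, 29.0% held fewer CG pairs than Krt8, 66.5% fewer than Krt18 and 74.6% fewer than Krt7. A TATAAA box, searched as these letters in the last 50 bases, was in none of these 3 promoters and in 2.63% of all. Methylation was not analysed here, so these letters describe the windows only. By the annotated spans above, the Krt7 window (chr15:101412153-101412402) lay inside the gene. The Krt8 and Krt18 windows reached into theirs beyond the printed stretches. The promoter of Krt19 is not shown.

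Between 1366 and 12716 cells per library, with 36606912 to 233594354 UMIs in all, passed the filters. The libraries labelled Dnmt3b KO 1 and 2 shared 12249 cell barcodes, against 133 for the next pair, and were summed and counted as 1 sample (Dnmt3b KO 1+2), which left 17 samples. Dnmt1 was at 14.9 to 15.7 CPM (UMIs of a gene, scaled to 1000000 UMIs in all) in Dnmt1 KO against 83.3 to 115.6 in WT, and Dnmt3a at 7.39 to 11.8 CPM in Dnmt3a KO against 23.1 to 34.9. Dnmt3b stood at 54.3 to 68.3 CPM in the libraries labelled Dnmt3b KO, inside the WT range of 35.4 to 87.2, and a 3′ tag outside the deleted part would check nothing. Dnmt3a was also low, at 15 and 7.56 CPM, in the libraries labelled Dnmt3b KO 11 and 12, so results that rest on the latter are given with and without it. WT 2 was the only male WT embryo, and every KO sample but the library labelled Dnmt3b KO 12 was male. Counts near the 3′ end measure each keratin against itself across samples, not against another keratin.

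The first question is where each keratin was expressed in WT embryos. Cells were grouped without using any keratin and the groups were named from marker genes, so each name ends in "-like". Among 17 classes, Krt8 and Krt18 were highest in ExE mesoderm-like cells (amnion and yolk sac mesothelium are of this kind), gut endoderm-like and notochord-like cells, Krt19 in notochord-like and gut endoderm-like cells, and Krt7 in gut endoderm-like and surface ectoderm-like cells.

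Krt7, the type II chain of glandular and ductal epithelia, had the narrowest pattern. It averaged 88.6 ± 22.9 CPM (SD, n = 7 embryos) in gut endoderm-like cells, 52.2 ± 26.0 in surface ectoderm-like cells (n = 7), 38.4 ± 5.61 in notochord-like cells (n = 4) and 26.6 ± 16 in ExE endoderm-like cells (n = 7). ExE mesoderm-like cells averaged 2.17 ± 3.27 CPM, a mean that rests on WT 4 (9.53 CPM, against 0.385 to 1.49 in the other embryos), and every other class averaged under 1 CPM. Krt7 was thus nearly absent from the class in which Krt8 was highest.

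Krt8, the type II chain shared by all simple epithelia, was broad. It averaged 1639.5 ± 179.1 CPM in ExE mesoderm-like cells, 1309.5 ± 495.8 in notochord-like cells and 989.5 ± 137.3 in gut endoderm-like cells. Allantois-like cells followed at 723 ± 138.6 CPM (n = 6), then surface ectoderm-like cells at 612 ± 133.4 and ExE endoderm-like cells at 521 ± 54.1. Muscle precursors held it too, with 268.7 ± 19.4 CPM in cardiomyocyte-like and 176.8 ± 18.1 in pharyngeal mesoderm-like cells.

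Krt18, the type I partner of Krt8, had nearly the same order. It averaged 1620.8 ± 63.7 CPM in ExE mesoderm-like cells, 1371 ± 120.7 in gut endoderm-like cells, 1068 ± 349.3 in notochord-like cells and 774.6 ± 118 in ExE endoderm-like cells. It stood at 588.3 ± 103.5 CPM in surface ectoderm-like cells and at 278.4 ± 57.1 in allantois-like cells. Pharyngeal mesoderm-like cells (212.4 ± 49.7) and cardiomyocyte-like cells (164.4 ± 20) came next.

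Krt19, a type I chain that lacks most of the usual tail, was led by notochord-like cells at 851.5 ± 518.4 CPM. The 4 embryos with enough of these cells differed widely, from 412.5 to 1578 CPM. Gut endoderm-like cells averaged 283.6 ± 63.9 CPM, ExE mesoderm-like cells 153 ± 45.1, cardiomyocyte-like cells 78.7 ± 26.1 and surface ectoderm-like cells 48.6 ± 25.1. Krt19 was low in ExE endoderm-like cells, at 14.8 ± 5.97 CPM, where Krt18 was high.

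Erythroid-like cells, which should lack keratins, gave the lowest mean of each gene, with 0.145 CPM of Krt7, 5.49 of Krt8, 6.11 of Krt18 and 0.732 of Krt19. Of the neighbouring classes in each gene's order, none differed past an adjusted p of 0.05 (exact two-sided sign-flip permutation test over embryos on log2(CPM + 1), Benjamini-Hochberg per gene). With 7 embryos that test cannot go below 0.0156 before adjustment, and the smallest adjusted p was 0.0833. A group of cells that the naming limits left unnamed was led by Wnt6 (a gene of the surface ectoderm list), Anxa2 and Igfbp2. This group held still more of the type II chains, with means of 1812 CPM of Krt8 and 197.8 of Krt7 over 4 WT embryos. Its Krt8 stood at 1506 CPM in WT 3 and at 1888 to 1951 in the others. Beside these it held 1691 CPM of Krt18 and 255.9 of Krt19.

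**Figure D1:**
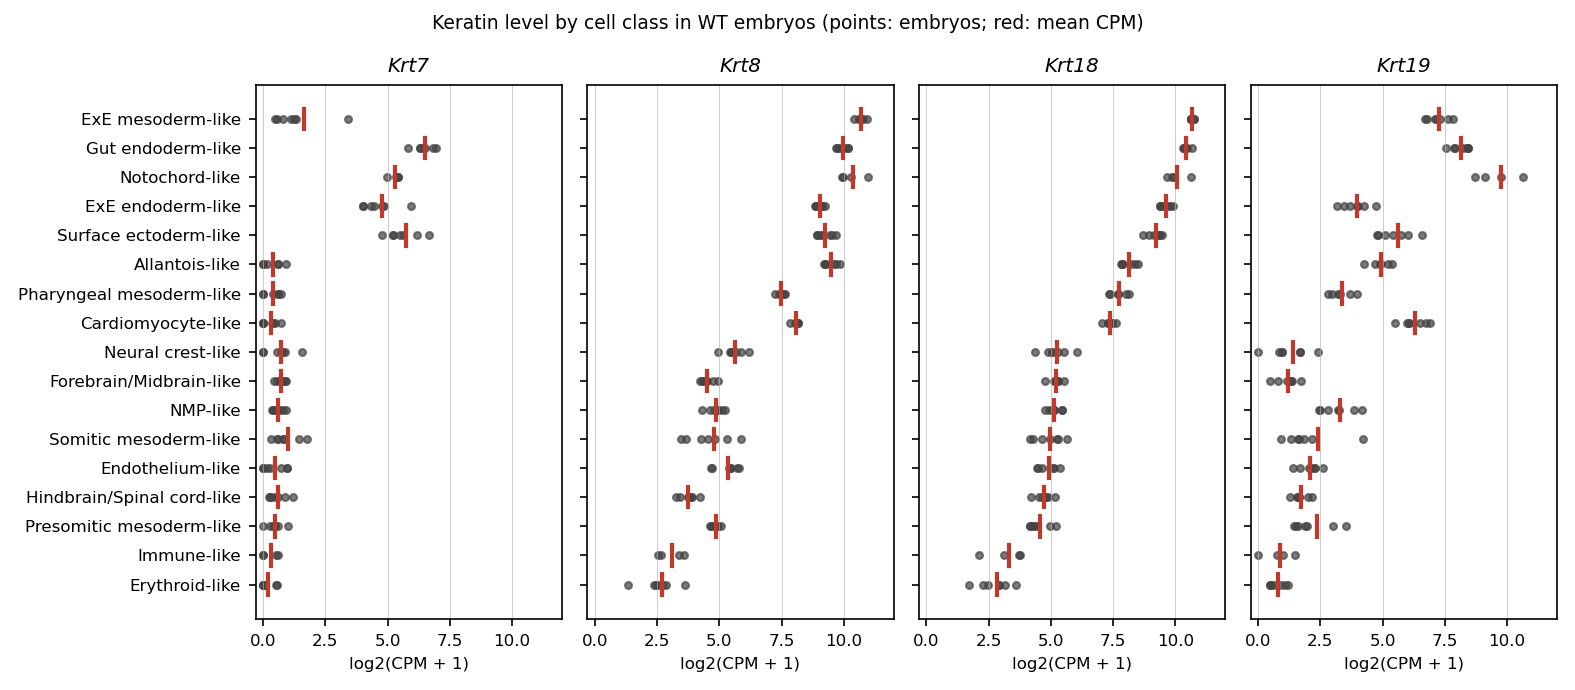
Level of each keratin (log2(CPM + 1), horizontal axis) in 17 classes of cells of WT embryos, with 1 point per embryo and the class mean in CPM in red. Krt8 and Krt18 share their leading class, at means of 1639.5 and 1620.8 CPM, whereas Krt7 averages 2.17 CPM there.

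The next comparison asks whether the summed RNA of a whole embryo changed for these genes. Krt8 and Krt18 stood above the whole WT range in all 3 Dnmt1 KO samples. The same held in 3 of 4 Dnmt3a KO samples and in all 3 samples labelled Dnmt3b KO. The share of all genes that stand apart in this way is not given, here or by class, so such separation is only a description. No keratin passed the study's thresholds in any group, which are an adjusted p under 0.01 (edgeR quasi-likelihood test, Benjamini-Hochberg over all genes of the fit) and a change of 1 or more, up or down, on the log2 scale. By these thresholds 14.1% of 18759 genes were called for Dnmt1 KO, 0.219% for Dnmt3a KO and 1.81% for Dnmt3b KO. At an unadjusted p under 0.05, 3 of the 4 keratins differed in Dnmt1 KO, with 2 higher and 1 lower. For Dnmt3a KO there was 1 and for Dnmt3b KO there were 2, all higher, and DESeq2 called 0 in each group. The shares of all genes at that unadjusted p and with DESeq2 are not given, so these counts are not read as an excess. The 3 comparisons share their WT samples.

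Krt18 showed the widest shift. WT embryos ran from 329.5 to 386.4 CPM with a median of 370.5, and Dnmt1 KO 1, 2 and 3 stood at 672.8, 718.6 and 538.7 CPM. All 3 lay well above the WT range. The log2 fold change was 0.88 (SE 0.11, adjusted p 1.39e-05, n = 3 against 7), a 1.84-fold higher level that stayed under the fold threshold.

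Krt8 ran from 306.1 to 365.6 CPM in WT, with a median of 318.2, and stood at 465.8, 473.6 and 385.9 CPM in Dnmt1 KO 1, 2 and 3. Again the groups did not overlap, and Krt8 was 1.43-fold higher (log2 fold change 0.51, SE 0.10, adjusted p 0.000620). The 2 genes differed from WT in the same direction, Krt18 by more than Krt8.

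Krt7 ran from 8.12 to 23.2 CPM in WT (median 13) and stood at 7.11, 12.1 and 5.06 CPM in Dnmt1 KO 1, 2 and 3. Dnmt1 KO 1 and 3 lay below every WT embryo and Dnmt1 KO 2 lay inside the range (log2 fold change -0.70, SE 0.29, adjusted p 0.0700). With samples left out in turn, the log2 fold change of Krt7 ran from -1.13 to -0.45 (adjusted p 0.0143 to 0.272). Krt19 ran from 23.4 to 50.4 CPM in WT (median 36.6). Dnmt1 KO 1 and 3, at 19.5 and 18.1 CPM, lay below that range while Dnmt1 KO 2, at 64.9 CPM, lay above it (log2 fold change -0.04, SE 0.32, adjusted p 0.936).

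In Dnmt3a KO 1, 2, 13 and 14, Krt8 stood at 389.9, 422.9, 346.7 and 373 CPM and Krt18 at 403, 465.9, 393.1 and 370.1 CPM. The log2 fold changes were 0.23 (adjusted p 0.415) and 0.14 (adjusted p 0.713), so these shifts were not distinguishable from the spread. In Dnmt3b KO 1+2, 11 and 12, Krt8 stood at 436.4, 406.3 and 510.4 CPM and Krt18 at 480.6, 511.4 and 551.4 CPM. The log2 fold changes were 0.44 (SE 0.10, adjusted p 0.0138) and 0.46 (SE 0.11, adjusted p 0.0296), and without the library labelled Dnmt3b KO 12 they were 0.36 (adjusted p 0.199) and 0.42 (adjusted p 0.228). Krt7 stood between 13.2 and 19.6 CPM and Krt19 between 30.4 and 48.7 CPM in these 7 samples and overlapped with WT in both groups.

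**Figure D2:**
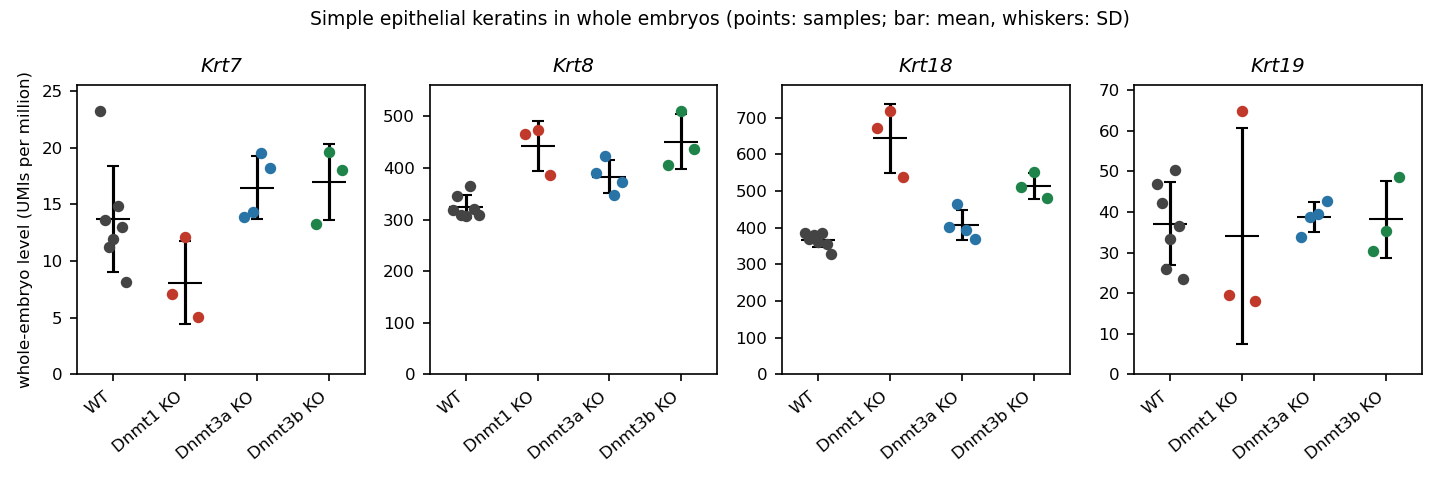
Level of each keratin over the whole embryo (CPM, vertical axes) in the 4 groups, with 1 point per sample, the group mean as a bar and whiskers of 1 SD. For Krt18 the 3 Dnmt1 KO samples sit between 538.7 and 718.6 CPM, above every WT embryo, whereas for Krt19 they fall on both sides of the WT range.

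The level in a whole embryo is the sum over classes of the keratin UMIs that each class supplies, so fewer cells of a class and less RNA per cell cannot be told apart in it. Split by class, the Dnmt1 KO difference of Krt18, 276.7 CPM, came from ExE mesoderm-like cells, which supplied 71.0 CPM of the embryo in WT and 230.3 in Dnmt1 KO, from ExE ectoderm-like (trophoblast) cells, which supplied 1.89 and 139.0 CPM, and from ExE endoderm-like cells, which supplied 111.6 and 175.9 CPM. Single embryos set much of the last 2 values. ExE ectoderm-like cells supplied 49.1, 310.9 and 57.2 CPM of Krt18 in Dnmt1 KO 1, 2 and 3 (mean 53.1 without Dnmt1 KO 2) and 0.237 CPM in WT without WT 2. ExE endoderm-like cells supplied 274.2, 193.9 and 59.5 CPM against 55.8 to 144.4 in WT, so Dnmt1 KO 3 lay inside the WT range. Gut endoderm-like cells supplied less, 31.2 CPM against 71.6, and surface ectoderm-like cells supplied almost none, 0.164 CPM against 30.1. Epiblast-like cells supplied 0.0591 CPM in WT and 21.4 in Dnmt1 KO. These are means over samples, given as a description with no test.

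Krt8 was split in the same way. ExE mesoderm-like cells supplied 185.2 CPM in Dnmt1 KO against 71.9 in WT, ExE ectoderm-like cells 81.8 against 1.66 (31.0 without Dnmt1 KO 2 and 0.371 without WT 2) and ExE endoderm-like cells 102.8 against 75.9, while gut endoderm-like cells supplied 18.2 against 50.9, surface ectoderm-like cells 0.160 against 30.8 and allantois-like cells 0.259 against 19.6. Epiblast-like cells supplied 13.3 CPM against 0.0331. The sum of all classes came to a difference of 117.1 CPM. For ExE endoderm-like cells the higher mean came from 2 of the 3 embryos, with 155.5, 114.6 and 38.4 CPM of Krt8 in Dnmt1 KO 1, 2 and 3 against 35.3 to 97.0 in WT.

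The near-zero whole-embryo change of Krt19 was the sum of opposite parts. Gut endoderm-like cells supplied 14.5 CPM in WT and 1.84 in Dnmt1 KO, ExE mesoderm-like cells 6.85 and 4.39, and ExE ectoderm-like cells 0.532 and 24.2 (8.47 without Dnmt1 KO 2 and 0.124 without WT 2). ExE ectoderm-like cells held on average 58.8% of the Krt19 UMIs of a Dnmt1 KO embryo, and 39.3%, 85.8% and 51.1% in Dnmt1 KO 1, 2 and 3. For Krt7 the same class held 20.7%, 73.0% and 41.5%, for Krt18 7.30%, 43.3% and 10.6%, and for Krt8 5.80%, 38.7% and 9.07%. Dnmt1 KO 2, the sample that set Krt19 above the WT range, had 949 cells of this class against 82 and 114 in the others.

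When ExE ectoderm-like cells were left out of every sample (a choice fixed with earlier results known), Krt19 and Krt7 fell in Dnmt1 KO past the thresholds. The log2 fold changes were -1.52 for Krt19 (adjusted p 7.95e-05) and -1.46 for Krt7 (adjusted p 0.000871). With ExE endoderm-like and parietal endoderm-like cells left out as well, they were -1.20 and -1.47 and still called, and Krt18 then passed the fold threshold at 1.04 (adjusted p 8.02e-06). Whether 3 of the 4 keratins were called over a whole embryo thus changed with the extra-embryonic cells counted. For Krt18 only the fold threshold was crossed, since its adjusted p was under 0.01 in the full fit too. Over the alternative fits, these included, 1425 to 2884 genes were called for Dnmt1 KO, and the share in each is not given.

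Cell shares moved beside these values. ExE ectoderm-like cells made up 0.254% of cells in WT and 13.7% in Dnmt1 KO on average. They made up 1.72% in WT 2 and at most 0.0333% in the other WT embryos (mean 0.00865% without WT 2), and 5.60%, 31.1% and 4.47% in Dnmt1 KO 1, 2 and 3 (mean 5.03% without Dnmt1 KO 2). ExE mesoderm-like cells made up 4.37% and 13.7%, and ExE endoderm-like cells 13.3% and 21.5%. Gut endoderm-like cells made up 5.79% and 1.64%, surface ectoderm-like cells 4.45% and 0.0240%, allantois-like cells 2.88% and 0.0990%, and epiblast-like cells 0.0450% and 12.4%. The study, staging embryos by their cell type proportions, describes a minor developmental delay in Dnmt1 KO. What part dissection or this delay had in these shares, or in the Dnmt1 KO values by class below, was not tested. In Dnmt3b KO the differences of 126.4 CPM for Krt8 and 147.7 for Krt18 came mostly from ExE mesoderm-like (51.6 and 54.8), allantois-like (26.0 and 17.5) and gut endoderm-like cells (16.7 and 29.1), and ExE mesoderm-like cells made up 7.43% of cells. Without the library labelled Dnmt3b KO 12 the differences were 96.7 and 129.3 CPM, those of ExE mesoderm-like cells 26.2 and 34.0, of allantois-like cells 27.9 and 15.6 and of gut endoderm-like cells 16.1 and 31.1, and ExE mesoderm-like cells made up 5.66% of cells.

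**Figure D3:**
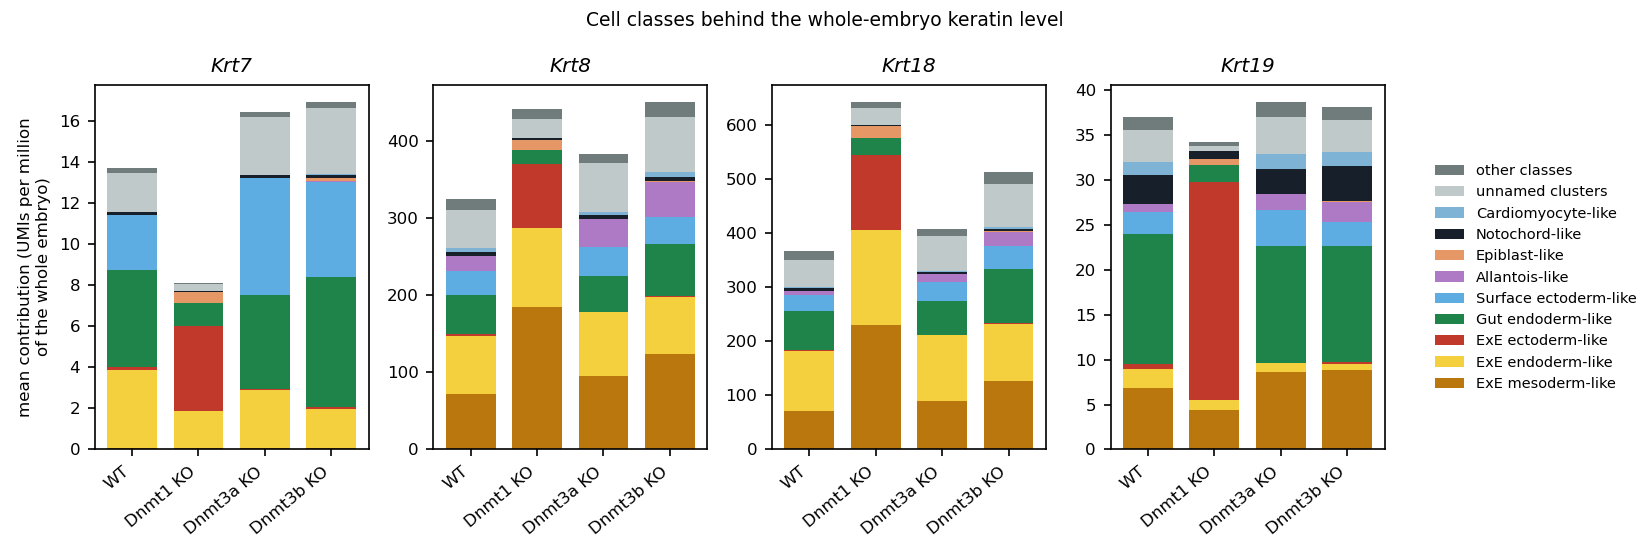
Keratin UMIs supplied by each class of cells, in CPM of the whole embryo (stacked bars, group means). In Dnmt1 KO, ExE ectoderm-like cells add 139.0 CPM to Krt18 and 24.2 CPM to Krt19 (53.1 and 8.47 without Dnmt1 KO 2), from 1.89 and 0.532 CPM in WT (0.237 and 0.124 without WT 2).

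Within classes, the question is whether a cell of a given kind held more or less keratin RNA. In 7 classes of Dnmt1 KO the keratins could be tested 24 times, and 9 of these tests were called, 5 up and 4 down. Of all tests of a gene in these classes 8.57% were called, and 5.53% to 11.2% by class. At an unadjusted p under 0.05 there were 14, 8 higher and 6 lower, and DESeq2 called 10. The shares of all tests at that unadjusted p and with DESeq2 are not given, so these counts have none beside them. The rises were of Krt8 and Krt18 in endothelium-like and presomitic mesoderm-like cells and of Krt8 in immune-like cells. The falls were of Krt7 in ExE endoderm-like cells and of Krt19 in ExE endoderm-like, ExE mesoderm-like and gut endoderm-like cells. Krt7 was too low to be tested in endothelium-like, presomitic mesoderm-like and immune-like cells, as was Krt19 in immune-like cells.

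Endothelium-like cells gave the clearest rise. Krt8 ran from 24.5 to 55.0 CPM in WT (median 42.4) and stood at 128, 156.7 and 173.8 CPM in Dnmt1 KO 1, 2 and 3. Krt18 ran from 20.7 to 39.9 CPM (median 30.2) and stood at 115, 134.9 and 191 CPM. Neither gene's groups overlapped. The rise was 4.02-fold for Krt8 (log2 fold change 2.01, SE 0.28, adjusted p 2.80e-05) and 5.19-fold for Krt18 (2.37, SE 0.31, adjusted p 1.03e-05), where 3.54% of genes were called up. Krt19 did not pass in the same cells (-0.03, SE 0.48, adjusted p 0.981).

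Of the Dnmt1 KO endothelium-like cells, 24.4% came from a higher-depth cluster led by Kdr and Etv2, genes of early endothelium, and 74.8% from a lower-depth one led by Lyve1, against 39.0% and 51.8% in WT. Another 193 WT cells came from a small cluster, also led by Lyve1, in which Krt8 averaged 28.8 CPM and which held too few Dnmt1 KO cells for a value. In the first, Krt8 averaged 173.2 CPM (138.5 to 214.8) in Dnmt1 KO against 41.4 (23.9 to 60.1) in WT, and Krt18 160.1 (125.9 to 218.4) against 24.6 (21.6 to 29.9). In the second, Krt8 averaged 87.0 CPM (63.1 to 107.7) against 51.4 (29.2 to 73.9) and Krt18 106.2 (43.7 to 147) against 40.1 (19.4 to 57.8), with overlap. The difference was therefore wider in the cluster that held fewer of the Dnmt1 KO cells. Numbers were small, with 48, 42 and 180 endothelium-like cells in Dnmt1 KO 1, 2 and 3.

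Markers of other keratin-rich cells were read in the same cells. The summed level of the ExE ectoderm list (11 genes) ran from 49.1 to 100 CPM in WT endothelium-like cells and from 59.0 to 117.8 in Dnmt1 KO, with 9 of the 11 detected there and Tpbpa and Esx1 at 0. The ExE endoderm list (11 genes) ran from 62.3 to 418.2 CPM and from 97.5 to 137.7. The ExE mesoderm list (9 genes) ran from 187.8 to 296.5 CPM and from 142.5 to 186.0. The first 2 lists overlapped between groups and the ExE mesoderm list was lower in Dnmt1 KO. The part of other cells' RNA in the rise was not tested. The study counts Krt8 itself, and Ascl2, a gene of the ExE ectoderm list, among ExE markers that were higher in most Dnmt1 KO cell types. Here Krt8 was called higher in endothelium-like, presomitic mesoderm-like and immune-like cells and in no other class tested. The study also drew on published embryos that are not used here. What a higher sum of the ExE ectoderm list stands for, here and in the classes below, was not tested.

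In presomitic mesoderm-like cells, the precursors of somites, Krt8 ran from 23.9 to 32.7 CPM in WT (median 28.5) and stood at 97.0, 75 and 115.5 CPM in Dnmt1 KO 1, 2 and 3. Krt18 ran from 16.8 to 36.1 CPM (median 19.1) and stood at 91.0, 72.4 and 118.6 CPM. The groups did not overlap for either gene. Krt8 rose 3.49-fold (log2 fold change 1.80, SE 0.40, adjusted p 0.00244) and Krt18 4.15-fold (2.05, SE 0.42, adjusted p 0.00145), against 5.04% of genes called up, and Krt19 did not pass (-0.32, adjusted p 0.689). Without Dnmt1 KO 3 the adjusted p became 0.0241 for Krt8 (log2 fold change 1.61) and 0.0173 for Krt18 (1.81), and neither was called. With sex as a covariate the log2 fold changes were 3.07 and 3.5. That term rests on WT 2, the only male WT embryo, and the library labelled Dnmt3b KO 12, the only female KO sample. No value with sex and without that library is given, so these values are no check of the rise.

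Different clusters held this class in the 2 groups. In WT, 99.1% of the cells came from a cluster led by Dll3 and Hes7, genes of the segmentation clock, and in Dnmt1 KO 98.6% came from a cluster led by Mesp1, a gene of nascent mesoderm. The library labelled Dnmt3b KO 12 also had 296 cells of the Mesp1 cluster, which stood at 268.1 CPM of Krt8 and 255.4 of Krt18, higher than in Dnmt1 KO. In these cells the difference between groups and the difference between clusters cannot be told apart. The ExE ectoderm list stood at 7.58 to 11.3 CPM in WT presomitic mesoderm-like cells and at 40.1 to 57.9 in Dnmt1 KO, with Tpbpa at 0 in both groups, whereas the ExE endoderm list overlapped (45.1 to 216.5 and 34.8 to 131.1 CPM), as did the ExE mesoderm list (176.5 to 423.6 and 275.7 to 342.8 CPM). The part of other cells' RNA in the rise was not tested.

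In immune-like cells, early macrophages, Krt8 stood at 9.39, 11, 5.39 and 4.86 CPM in WT 1, 2, 3 and 7 and at 19.4, 20.7 and 32.7 CPM in Dnmt1 KO 1, 2 and 3. The groups did not overlap, and Krt8 rose 3.18-fold (log2 fold change 1.67, SE 0.29, adjusted p 0.000594), where 7.25% of genes were called up. Krt18 stood at 12.1, 12.5, 3.37 and 7.63 CPM in WT and 13.3, 18.8 and 36.3 CPM in Dnmt1 KO (1.36, adjusted p 0.0105). With doublet calls kept, the log2 fold change was 0.08 for Krt8 (adjusted p 0.912) and -0.25 for Krt18. The WT levels of Krt8 are near those of erythroid-like cells and the Dnmt1 KO levels are above them. In erythroid-like cells Krt8 ran from 1.53 to 11.4 CPM in WT and stood at 6.18, 10.1 and 12.1 CPM in Dnmt1 KO (0.46, adjusted p 0.495). Of the Dnmt1 KO erythroid-like cells, 73.6% came from a cluster with 0 erythroid markers among its 10 leading genes, in which Krt8 averaged 9.01 CPM, whereas nearly all WT cells came from 3 other clusters. The ExE ectoderm list stood beside them at 4.47 to 13.5 CPM in WT and 27.7 to 41.4 CPM in Dnmt1 KO immune-like cells, with 6 and 10 of its 11 genes detected. The ExE mesoderm list stood at 20.2 to 43.0 and 71.0 to 95.6 CPM. Their part in the difference was not tested.

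Of the classes where Krt8 and Krt18 were high in WT, 3 held enough Dnmt1 KO cells to be tested, and neither gene was called in them. In ExE mesoderm-like cells the log2 fold change was -0.11 for Krt8 (SE 0.09, adjusted p 0.371) and 0.21 for Krt18 (SE 0.09, adjusted p 0.0681). In gut endoderm-like cells it was 0.13 for Krt8 (adjusted p 0.534) and 0.43 for Krt18 (adjusted p 0.0279), short of the fold threshold. In ExE endoderm-like cells Krt8 ran from 461.8 to 605.4 CPM in WT and stood at 392.9, 373.3 and 411.4 CPM in Dnmt1 KO, without overlap and under the fold threshold (-0.40, SE 0.12, adjusted p 0.0199), and Krt18 did not pass (-0.23, adjusted p 0.176).

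Krt19 fell in 3 classes of Dnmt1 KO. In gut endoderm-like cells it ran from 188.1 to 346.7 CPM in WT (median 302.7) and stood at 129.7, 68.5 and 89.5 CPM in Dnmt1 KO 1, 2 and 3, from 30, 41 and 39 cells. In ExE mesoderm-like cells it ran from 103.8 to 228.8 CPM (median 141) and stood at 35.6, 48.5 and 23.8 CPM. In ExE endoderm-like cells it ran from 7.87 to 25.9 CPM (median 14.8) and stood at 4.09, 5.49 and 1.62 CPM. The groups were apart in each class.

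The fitted level of Krt19 was 0.368 of that in WT in gut endoderm-like cells (log2 fold change -1.44, SE 0.19, adjusted p 1.44e-05, with 3.3% of genes called down). It was 0.245 of it in ExE mesoderm-like cells (-2.03, SE 0.26, adjusted p 8.12e-06, with 4.23% called down) and 0.278 of it in ExE endoderm-like cells (-1.85, SE 0.40, adjusted p 0.00241, with 1.97% called down). The fall in ExE endoderm-like cells was the least firm. Without Dnmt1 KO 1 its adjusted p was 0.0172, without Dnmt1 KO 3 it was 0.0144, and with sex as a covariate it was 0.0268. The sex term has the limit given for presomitic mesoderm-like cells, so that last value is no check of the fall.

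Within single clusters the fall of Krt19 was seen in gut and ExE mesoderm and not in ExE endoderm. In the main gut cluster Krt19 averaged 99.0 CPM (72.4 to 130.0) in Dnmt1 KO against 356 (234.5 to 444.2) in WT, without overlap. In the ExE mesoderm cluster that both groups shared it averaged 68.2 CPM (36.3 to 88.0) against 162 (93.7 to 243), again without overlap, although 83.8% of Dnmt1 KO ExE mesoderm-like cells came from another cluster. In the main WT cluster of ExE endoderm the means were 15.8 and 19.8 CPM with overlap, while 69.3% of the Dnmt1 KO cells came from another cluster.

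Krt7 was tested in 4 classes and fell in ExE endoderm-like cells. It ran from 15 to 60.9 CPM in WT (median 21.2) and stood at 7.14, 5.74 and 8.90 CPM in Dnmt1 KO 1, 2 and 3. WT 1 stood apart at 60.9, with the other WT embryos at 28.3 or less. The groups did not overlap, and the fitted level was 0.263 of that in WT (log2 fold change -1.93, SE 0.45, adjusted p 0.00427). The call was lost without Dnmt1 KO 1 (adjusted p 0.0270), without Dnmt1 KO 2 (0.0350) and without Dnmt1 KO 3 (0.0128). It was also lost with sex as a covariate (0.0766), a fit with the limit given for presomitic mesoderm-like cells. In the main WT cluster of this class Krt7 averaged 8.33 CPM (2.50 to 13.1) against 24 (8.81 to 52.5), with overlap. In gut endoderm-like cells, its leading class, Krt7 did not pass (-0.40, SE 0.21, adjusted p 0.174). In ExE mesoderm-like cells, where it was scarce, it ran from 0.385 to 9.53 CPM in WT and stood at 0.420, 0.674 and 0.305 CPM in Dnmt1 KO, and did not pass (-2.10, SE 0.82, adjusted p 0.0507, and -0.86, adjusted p 0.135, without WT 4).

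**Figure D4:**
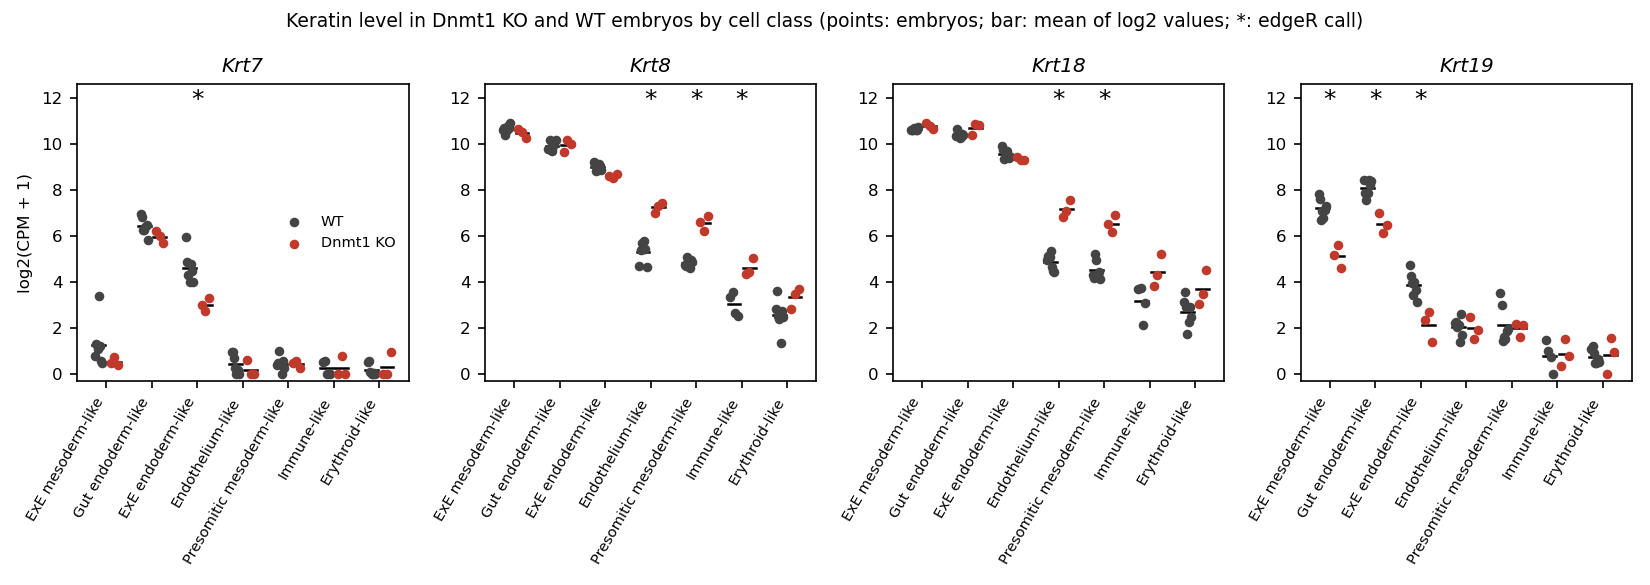
Keratin levels (log2(CPM + 1), vertical axes) by class in WT and Dnmt1 KO embryos, with 1 point per embryo, the group mean as a bar and an asterisk on each edgeR call. Krt8 and Krt18 separate in endothelium-like cells (24.5 to 55.0 against 128 to 173.8 CPM for Krt8), and Krt19 separates downward in gut, ExE mesoderm-like and ExE endoderm-like cells.

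In Dnmt3a KO none of 57 tests of a keratin in 17 classes was called by edgeR or by DESeq2. Of all tests of a gene in these classes 0.113% were called by edgeR. At an unadjusted p under 0.05 there were 13 of the 57, 10 higher and 3 lower. In Dnmt3b KO none of 54 tests in 16 classes was called by edgeR, against 0.697% of all tests of a gene called. DESeq2 called 2 of the 54, Krt18 in allantois-like cells and Krt19 in ExE endoderm-like cells. At an unadjusted p under 0.05 there were 15 of the 54, 12 higher and 3 lower. The shares of all tests at that unadjusted p and with DESeq2 are not given for either group, so these counts are not read as an excess.

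Krt19 in ExE endoderm-like cells was not called in either group, and was called under some alternatives. It stood at 5.4, 9.8, 2.4 and 5.3 CPM in Dnmt3a KO 1, 2, 13 and 14 (log2 fold change -1.40, SE 0.34, adjusted p 0.0307), and at 5.49, 4.02 and 5.75 CPM in Dnmt3b KO 1+2, 11 and 12 (-1.60, SE 0.39, adjusted p 0.0219). In Dnmt3a KO it was called with no low-count filter (-1.39, adjusted p 0.00935) and without Dnmt3a KO 2 (-1.76, adjusted p 0.00926), and in Dnmt3b KO with DESeq2 (adjusted p 0.00832), no filter (0.00658), Dnmt3b KO 1 and 2 apart (0.00863) or without Dnmt3a KO 2 (0.00875). Under the other alternatives the adjusted p reached 0.300 and 0.128. Among these 7 samples, only Dnmt3a KO 2 was inside the WT range of 7.87 to 25.9 CPM.

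In allantois-like cells, Krt18 ran from 221.2 to 357 CPM in 6 WT embryos and stood at 357.3, 542 and 860.6 CPM in Dnmt3b KO 1+2, 11 and 12 (log2 fold change 1.07, SE 0.22, adjusted p 0.0148). The sample labelled Dnmt3b KO 12 was the highest, and without it the value was 0.70 (adjusted p 0.316). In presomitic mesoderm-like cells Krt8 stood at 27.9, 30.6 and 228.0 CPM and Krt18 at 21.8, 39.2 and 214.5 CPM in the same order. The log2 fold changes of 1.72 (SE 0.39, adjusted p 0.0193) and 1.94 (SE 0.42, adjusted p 0.0127) rested on the library labelled Dnmt3b KO 12, since without it they were 0.09 (adjusted p 0.933) and 0.43 (adjusted p 0.729). In the cluster led by Dll3 and Hes7, Krt8 averaged 26.4 CPM (22.2 to 29.0) in Dnmt3b KO and 27.5 (23.9 to 32.9) in WT.

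**Figure D5:**
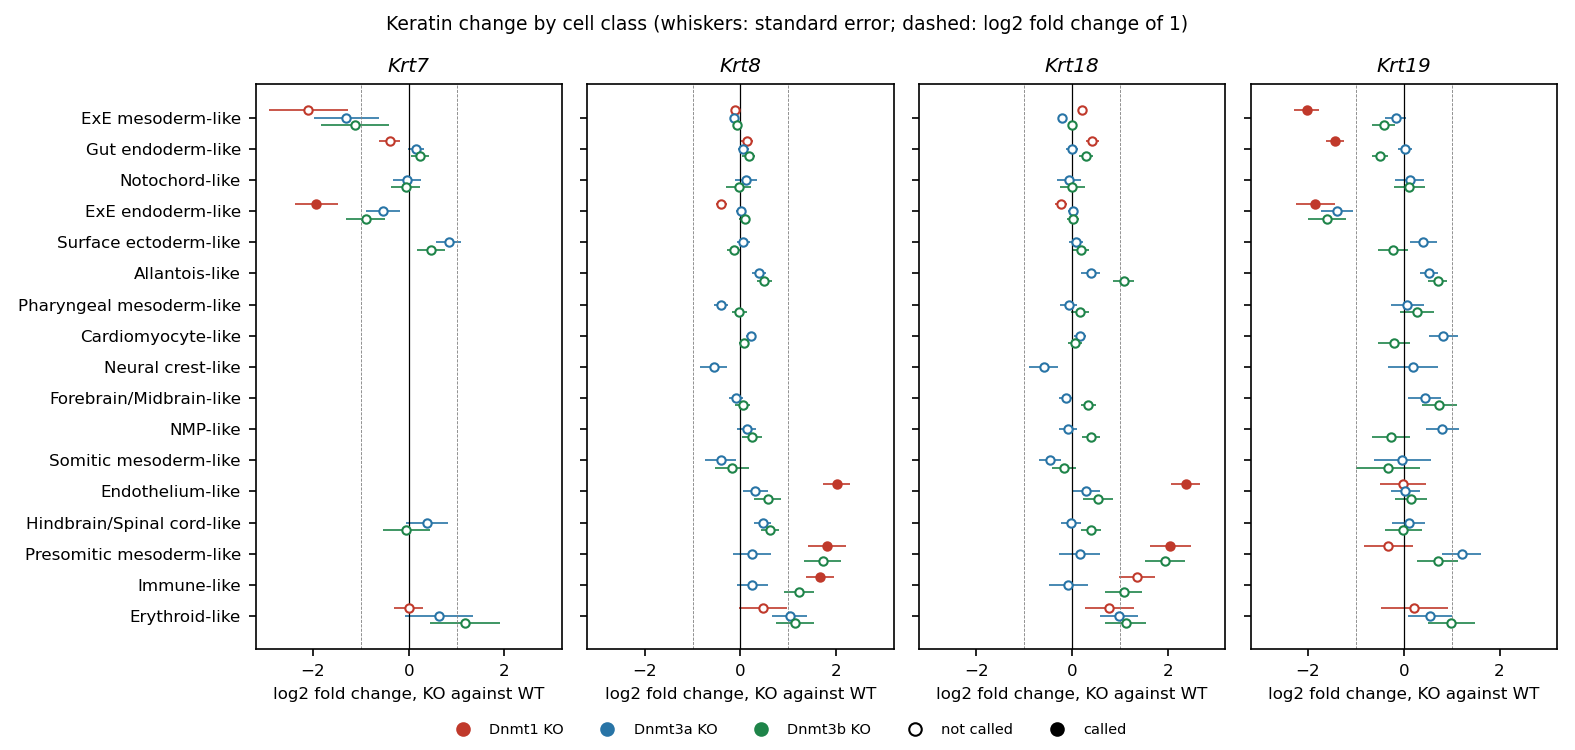
Log2 fold change against WT (horizontal axes, whiskers of 1 SE) of each keratin by class in the 3 KO groups, with called changes filled and dashed lines at -1 and 1. The filled points are all of Dnmt1 KO, from 2.37 for Krt18 in endothelium-like cells to -2.03 for Krt19 in ExE mesoderm-like cells.

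The balance of Krt8 to Krt18, a type II chain and its type I partner, ranged widely between classes. Each Krt18 UMI came with 2.63 ± 0.44 Krt8 UMIs in WT allantois-like cells (n = 6), 1.65 in cardiomyocyte-like cells, 1.01 ± 0.09 in ExE mesoderm-like cells, 0.721 ± 0.074 in gut endoderm-like cells and 0.677 in ExE endoderm-like cells. UMIs of different genes are not captured alike, so the ratio is comparable between classes and not a count of chains. In gut endoderm-like cells of Dnmt1 KO it ran from 0.574 to 0.600, below the WT range of 0.637 to 0.858. It averaged 1.06 in Dnmt1 KO and 1.30 in WT endothelium-like cells, where the embryos of the groups overlapped. No test was run on these ratios.

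A filament needs both chains in the same cell, so the share of cells with at least 1 UMI of each of Krt8 and Krt18 was taken after thinning every cell to 1500 UMIs. In endothelium-like cells it was 3.16% in Dnmt1 KO against 0.437% in WT, and in presomitic mesoderm-like cells 4.33% against 0.291%. In erythroid-like cells, which should lack both, it was 0.876% and 0.0789%, and in immune-like cells 0% and 0.329%. As given above, mostly different clusters held the presomitic mesoderm-like, erythroid-like and ExE endoderm-like cells of the 2 groups. Over all cells it was 26.6% in Dnmt1 KO, 24.4% in Dnmt3b KO and 18.1% in WT, and in ExE endoderm-like cells it was lower in Dnmt1 KO, at 29.1% against 38.8%. Apart from erythroid-like cells (p 0.0667, adjusted p 0.239) and immune-like cells, each of these differences from WT reached the smallest p possible. With 3 against 7 samples that is 0.00833 (exact two-sided permutation test), or an adjusted p of 0.0717 over 43 comparisons, and none passed 0.05. Before thinning, the endothelium-like shares were 40.4% and 18.3%, at median depths of 4574 and 8172 UMIs per cell.

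Other genes of the keratin system were read over the whole embryo from lists chosen with earlier results of these data known. Of 49 other keratins 25 could be tested, of which 3 rose in Dnmt1 KO embryos, 0 in Dnmt3a KO and 6 in the samples labelled Dnmt3b KO, with none called lower by edgeR. Of all genes, 8.05% were called up and 6.07% down in Dnmt1 KO, 0.208% and 0.0107% in Dnmt3a KO, and 1.78% and 0.0267% in Dnmt3b KO. The median log2 fold change of the other keratins was 0.55 in Dnmt1 KO (0.01 over all genes), 0.19 in Dnmt3a KO and 0.70 in Dnmt3b KO (-0.01 over all genes). Without the library labelled Dnmt3b KO 12 the Dnmt3b KO median was 0.38. The Dnmt1 KO median was 0.32 without Dnmt1 KO 2 and 0.58 without ExE ectoderm-like cells. DESeq2 called 3 up and 2 down in Dnmt1 KO, 2 up in Dnmt3a KO and 7 up in Dnmt3b KO, and the share of all genes that it called is not given. Without the library labelled Dnmt3b KO 12, 1 was called down in Dnmt1 KO by edgeR. Those named by size in Dnmt1 KO were Krt27 (2.40, adjusted p 0.00300), Krt12 (2.31) and Krt25 (2.23, adjusted p 0.00981), hair follicle and corneal keratins that reached at most 0.335 CPM in a Dnmt1 KO sample. In Dnmt3b KO they were Krt87 (4.02, adjusted p 0.00918), Krt27 (2.87) and Krt13 (2.85). Krt13, a keratin of stratified lining epithelia, ran from 0.535 to 4.48 CPM in those samples against 0.182 to 0.309 in WT. Without the library labelled Dnmt3b KO 12, 3 rather than 6 other keratins rose, while all genes called went from 339 to 186. Krt27 was among the 3 (3.12, adjusted p 0.00288), while Krt87 (3.44, adjusted p 0.0946) and Krt13 (1.17, adjusted p 0.0471) were not called.

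Of 16 genes that anchor keratin filaments to desmosomes and other sites, 2 rose and 1 fell in Dnmt1 KO (median 0.33). Perp, a desmosome membrane protein, rose (log2 fold change 1.71), from 5.67 to 7.90 CPM in WT to 13.6 to 38.3 CPM, and Dsg2, a desmosomal cadherin, rose (1.28), from 13.9 to 26.9 CPM to 33.9 to 50.9 CPM. Evpl, an envelope linker, fell (-1.41). Of 27 epithelial junction and surface genes, 8 rose and 0 fell (median 0.66), led by Cldn3 (2.15), a tight junction claudin that ran from 3.59 to 6.48 CPM in WT and from 11.9 to 40.7 CPM in Dnmt1 KO, the splicing factor Esrp2 (1.90) and the tight junction protein Marveld3 (1.5). Of 15 other intermediate filament genes tested, 4 rose and 0 fell (median -0.10), led by Sync (3.59), Bfsp2 (2.48) and Prph (2.0). In Dnmt3b KO 0 genes of the last 3 lists were called by edgeR or by DESeq2. Beside these counts, 8.05% of all genes were called up and 6.07% down in Dnmt1 KO, whose embryos also held more ExE ectoderm-like cells. Without those cells 3 junction genes rose and 1 fell, and without Dnmt1 KO 2 it was 4 and 1. Among the anchoring genes 2 rose and 1 fell under both. The shares above are of the full fit, and those of all genes in these other fits are not given.

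The same lists were read in the 2 classes where both Krt8 and Krt18 rose. In presomitic mesoderm-like cells of Dnmt1 KO, 5 of 19 tested junction genes rose and 1 fell (median 0.65), and 4 of 12 anchoring genes rose and 0 fell (median 0.76). In endothelium-like cells 1 of 18 junction genes rose and 3 fell, and 1 of 10 anchoring genes rose and 2 fell. Of all genes, 5.04% were called up and 2.75% down in the first class, and 3.54% and 4.59% in the second. The difference between the classes was not tested for these lists.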

How the data were processed

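The authors aligned the reads to mm10 with Cell Ranger (3.1.0, and 5.0.0 for the library labelled Dnmt3b KO 12, per the labels) and deposited raw UMI counts per gene and barcode. In 4 libraries the reference also held the human genome, and mouse genes alone were used. Every sample column was used (0 left out). Barcodes with at least 1500 mouse UMIs, at most 30% mitochondrial and 35% ribosomal UMIs were kept, and doublets were called at 0.8% per 1000 cells and removed.

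Cells were clustered (scanpy 1.11.5, leidenalg 0.10.2, Python 3.11.15) without 278 genes that included every keratin. Of 51 clusters 40 were named from markers, by score limits set after the scores were seen. Cells left unnamed made up 19.6% to 23.9% by group. UMIs were summed per sample and class (at least 25 cells in at least 3 samples a group), low counts were filtered, and TMM-scaled counts were fitted with edgeR 4.0.16 in R 4.3.3, 1 fit per class over all groups, adjusting over all genes. DESeq2 1.42.0, other scaling, no filter, thinning, sex, doublets kept and left-out samples were alternatives. The fit was tested on simulated data. Shares of cells with both keratins were compared by exact permutation. Log2(CPM + 1) used a pseudocount of 1.

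The keratins, lists and tests were chosen with earlier results of these data known. Named besides the keratins were, per list and KO group, up to 3 called genes of largest change and, per keratin, the 3 genes most like it across WT classes, among genes of at least 5 CPM in a class. Each sample is a separate embryo, except that Dnmt3b KO 1 and 2 were merged. Droplet counts carry counting error that falls with depth, so shallow classes are less precise.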

Additional observations from a re-analysis of the deposited data

Results flagged for a closer look

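The change of a keratin in Dnmt1 KO was compared between classes inside each embryo, as the log2(CPM + 1) difference of 2 classes, by an exact two-sided permutation test of 3 Dnmt1 KO against 7 WT embryos. This comparison was added after seeing the data. Of 63 pairs 23 had an adjusted p under 0.05, of which 20 reached the smallest p possible (0.00833, adjusted 0.0263) and 3 had a p of 0.0167 (adjusted 0.0457). Each value below is the change in the first class minus the change in the second.

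For Krt8, the change in endothelium-like cells exceeded that in ExE endoderm-like cells by 2.34, in ExE mesoderm-like cells by 2.13 and in gut endoderm-like cells by 1.93. Against presomitic mesoderm-like cells the difference was -2.13 for ExE endoderm-like, -1.92 for ExE mesoderm-like and -1.72 for gut endoderm-like cells. Erythroid-like minus ExE endoderm-like cells gave 1.18 (p 0.0167).

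For Krt18, endothelium-like cells exceeded ExE endoderm-like cells by 2.53, ExE mesoderm-like cells by 2.17 and gut endoderm-like cells by 2.0. Against presomitic mesoderm-like cells the difference was -2.26 for ExE endoderm-like, -1.90 for ExE mesoderm-like and -1.73 for gut endoderm-like cells. In both Krt8 and Krt18, endothelium-like and presomitic mesoderm-like cells thus moved up relative to ExE endoderm-like, ExE mesoderm-like and gut endoderm-like cells, and pairs with presomitic mesoderm-like, ExE endoderm-like, ExE mesoderm-like or erythroid-like cells compare mostly different clusters in the 2 groups (69.3% of Dnmt1 KO ExE endoderm-like, 83.8% of ExE mesoderm-like and 73.6% of erythroid-like cells came from clusters that held few WT cells of the class).

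For Krt19, endothelium-like cells exceeded ExE endoderm-like cells by 1.69 (p 0.0167), ExE mesoderm-like cells by 2.0 and gut endoderm-like cells by 1.5. Erythroid-like cells exceeded ExE endoderm-like cells by 1.84 and ExE mesoderm-like cells by 2.15. Against presomitic mesoderm-like cells the difference was -1.61 for ExE endoderm-like, -1.92 for ExE mesoderm-like and -1.43 for gut endoderm-like cells (the last with p 0.0167). For Krt7, erythroid-like minus ExE endoderm-like cells gave 1.75, and ExE endoderm-like minus gut endoderm-like cells gave -1.14.

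WT erythroid-like cells held 0.145 CPM of Krt7 and 0.732 CPM of Krt19, where a fall barely shows over the pseudocount of 1 CPM, so the 3 differences with erythroid-like cells for these genes are not taken as a difference between classes. WT endothelium-like and presomitic mesoderm-like cells held 3.29 and 4.12 CPM of Krt19, so the same limit bears on those pairs in part.

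Single samples stood apart in 7 of 148 groups of 4 to 7 samples (Dixon's 95% criterion), where chance gives about 1 in 20 groups. Krt7 stood at 60.9 CPM in ExE endoderm-like cells of WT 1 (others 15 to 28.3), and at 9.53 CPM in ExE mesoderm-like cells of WT 4 (others 0.385 to 1.49). In erythroid-like cells Dnmt3a KO 2 stood at 28.2 CPM of Krt8 (others 5.73 to 8.57) and 30.9 CPM of Krt18 (others 5.90 to 8.21). Krt19 stood at 17.7 CPM in somitic mesoderm-like cells of WT 5 (others 0.898 to 3.43) and at 3.29 CPM in forebrain/midbrain-like cells of Dnmt3a KO 14 (others 1.27 to 1.60). In the unnamed cluster led by Wnt6, Krt8 was lowest in WT 3, at 1506 CPM (others 1888 to 1951, among the 4 WT embryos with at least 25 cells). Over all 7 WT embryos, those with fewer cells included, it ran from 1506 to 2868 CPM.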

How the results depend on the processing

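Of the main results' recomputed values, 703 kept their direction and their side of the thresholds, 31 changed direction, 10 lost a call, 5 gained one and 13 counts moved by over 1.5 times. Of those of single keratins that were not called, 605 stayed, 27 gained a call and 5 changed direction. In Dnmt1 KO, Krt7 (-1.58, adjusted p 0.0766) and Krt19 (-1.91, adjusted p 0.0268) in ExE endoderm-like cells lost their calls with sex as a covariate. That fit has the limit given for presomitic mesoderm-like cells. In immune-like cells of Dnmt1 KO, Krt8 lost its call with doublets kept (0.076) and Krt18 turned to -0.25. In immune-like cells of Dnmt3b KO, Krt8 then turned to -0.17 and Krt18 to -0.23. Over the whole embryo without ExE ectoderm-like cells, Krt7 (-1.46) and Krt19 (-1.52) were called in Dnmt1 KO, and without ExE endoderm-like and parietal endoderm-like cells too, Krt7 (-1.47), Krt18 (1.04) and Krt19 (-1.20). Krt19 in Dnmt3b KO, at -0.00, turned to 0.0027 with DESeq2, 0.0038 with RLE scaling, 0.0072 with all barcodes, 0.028 with no filter, 0.048 after thinning, 0.093 with Dnmt3b KO 1 and 2 apart, and 0.011 and 0.063 without the extra-embryonic classes, and in Dnmt3a KO to -0.19 with sex. Genes called changed from 2648 to 1749 after thinning in Dnmt1 KO, from 41 to 117 (DESeq2) or 22 (thinned) in Dnmt3a KO, and from 339 to 197 (thinned) in Dnmt3b KO, and the cause was not tested except for thinning, which lowers depth.

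Leaving out single embryos gave -2.05 to -1.52 for Krt7 and -2.18 to -1.61 for Krt19 in ExE endoderm-like cells, and 1.61 to 1.95 for Krt8 and 1.81 to 2.22 for Krt18 in presomitic mesoderm-like cells, with the lost calls given with each result. With sex as a covariate the presomitic values were 3.07 and 3.5, with the limit stated for that class above. Krt19 over the whole embryo ran from -0.92 to 0.27 for Dnmt1 KO (positive without Dnmt1 KO 1 or 3 or WT 1, 2 or 5), from -0.049 to 0.14 for Dnmt3a KO (negative without WT 3 or 7) and from -0.19 (without Dnmt3b KO 1 and 2, the summed embryo, and from -0.092 otherwise) to 0.11 for Dnmt3b KO, and Krt7 in ExE mesoderm-like cells of Dnmt3b KO from -1.32 to 0.13 (without WT 4). Genes called ran from 1908 to 3129 for Dnmt1 KO, from 23 to 80 for Dnmt3a KO (beyond 1.5 times the 41 without Dnmt3a KO 2 or 13, Dnmt3b KO 12, or WT 2 or 6) and from 186 (without Dnmt3b KO 12) to 457 for Dnmt3b KO (without Dnmt3b KO 1 and 2, added after seeing the data, and up to 354 otherwise).

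The replicate number was also fitted as a block (replicate block). Deviations of KO and WT samples of like number were correlated over 0.1 in 4 of 7 pairs and not in every pair of Dnmt1 KO or Dnmt3b KO (correlations of 0.149, -0.0649 and -0.348 for Dnmt1 KO, 0.533 and 0.168 for Dnmt3a KO, -0.462 and 0.102 for Dnmt3b KO), and no label ties a number to a litter, so the numbers were not taken to pair embryos. The block gave 1425 genes called for Dnmt1 KO, 1 for Dnmt3a KO and 0 for Dnmt3b KO, a log2 fold change of 0.75 for Krt18 in Dnmt1 KO (adjusted p 0.00486), -2.43 for Krt19 in ExE endoderm-like cells of Dnmt1 KO, and turned Krt7 to -0.49 and Krt19 to -0.44 in Dnmt3a KO, Krt7 to -0.23 in Dnmt3b KO and Krt18 in allantois-like cells of Dnmt3b KO to -0.052.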

Other observations

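Across the 17 WT class means, the genes whose pattern was most like Krt8 (Pearson's r of log2(mean CPM + 1) over 12221 genes) were Cdh3, a placental cadherin (0.953), Arap2 (0.939) and Stam2 (0.911). For Krt18 they were Cdh3 (0.946), Ptpn21 (0.939) and Patj, a polarity protein (0.922). For Krt7 they were Atp2c2 (0.971), Galnt3, which starts mucin-type glycosylation (0.969), and Fermt1, a kindlin of epithelia (0.967), and for Krt19 Wipi1 (0.938), Dkk3 (0.908) and Ergic2 (0.901). Among the keratins themselves, Krt8 and Krt18 gave 0.978, Krt8 and Krt19 0.900, Krt18 and Krt19 0.888, and Krt7 between 0.666 and 0.740 with the other 3. The classes share libraries and depth, so these values are a description over 17 points.

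In the 4 libraries whose reference also held human genes, the human KRT7, KRT8, KRT18 and KRT19 had 0 UMIs.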
